A study of Mus musculus with 6 samples.

Results

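The 10 genes described here encode the proteins that make, sense, break down and export prostaglandin E2 (PGE2). They were chosen by gene symbol, and all 10 were found among the 39174 genes of the deposited table. Expression was measured by RNA sequencing of total RNA from MLO-Y4 cells, a mouse line with osteocyte features that was derived from long bone of mice carrying an SV40 large T antigen transgene under the osteocalcin promoter. In the 3 flow cultures, cells on collagen-coated glass were placed in flow chambers, where the medium was driven back and forth over them for 2 h at 10 dyn/cm², and were lysed after 2 h in fresh medium. In the 3 non-flow control cultures, the cells were sham treated and lysed in parallel; the 3 cultures of a group came from different days. All 6 cultures are of 1 line with no genetic change between groups, and the comparison asks how transcripts differed after flow.

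PGE2 is made from arachidonic acid, which phospholipase A2 releases from membranes. The cyclooxygenases Ptgs1 (constitutive, COX-1) and Ptgs2 (inducible, COX-2) convert it to prostaglandin H2, and the prostaglandin E synthases Ptges, Ptges2 and Ptges3 turn that into PGE2. The product leaves the cell partly through the transporter Abcc4, acts on receptors such as Ptger1, Ptger2 and Ptger4, and is inactivated by the dehydrogenase Hpgd. Osteocytes are known to release PGE2 when fluid moves past them, and Ptgs2 is a widely used readout of that response.

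Values are FPKM, fragments scaled to transcript length and sequencing depth, so levels of different genes can be set side by side. The depth read from the steps of low FPKM values was 11020000, 5750000 and 19230000 reads in flow libraries 1 to 3 and 17910000, 18080000 and 19010000 in non-flow controls 1 to 3. On log2(FPKM + 1) the libraries correlated at 0.896 to 0.926. limma, a linear model fitted to log2(FPKM + 1), was run on the 11957 genes averaging 1 FPKM or more, and called 2 at a Benjamini-Hochberg adjusted p under 0.05, which is 0.0167%. Neither was a prostaglandin gene. Of the osteocyte markers, Pdpn and Gja1 were abundant at 357 to 420 and 414 to 503 FPKM over the 6 libraries. Sost was listed at 0 in all 6 and Dmp1 at no more than 0.0354 FPKM, so these mature osteocyte genes were at or near 0. An osteoblast list summed to 7216 to 9036 FPKM in flow and 7690 to 7886 in controls, with 8 of its 10 genes averaging 1 FPKM or more. The osteocyte list, which includes Pdpn and Gja1, summed to 1043 to 1067 FPKM in flow and 949.2 to 1111 in controls. Only 5 of its 11 genes averaged 1 FPKM or more, and 4 were listed at 0 in all 6 libraries. Markers of leukocytes, epithelium, adipocytes and cartilage summed to at most 18.5 FPKM a list in any library. An endothelial list summed to 81.1 to 91.7 FPKM in flow and 93.2 to 119.6 in controls. Only 2 of its 8 genes averaged 1 FPKM or more, and Kdr and Tie1 were listed at 0. In bulk RNA, fewer expressing cells and less RNA per cell cannot be told apart.

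None of the 10 genes differed between flow and control cells at an adjusted p under 0.05. The expression minimum left 8 of the 10 to be tested. Ptges2 alone had an unadjusted p under 0.05 in limma (adjusted p = 0.559), as did 8.52% of all genes tested. With libraries of adjacent titles as a block, Ptgs2, Ptges2 and Ptges3 had one, as did 11.7% of all genes, and the adjusted p of each was 0.423. In Ptges and Ptges2 the 3 flow values did not overlap the 3 control values. That happened in 15.1% of all genes tested. The point estimates ran from a log2 fold change of -0.37 for Ptges2 to 0.83 for Ptgs2, and 7 of the 8 intervals included 0.

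**Figure D1:**
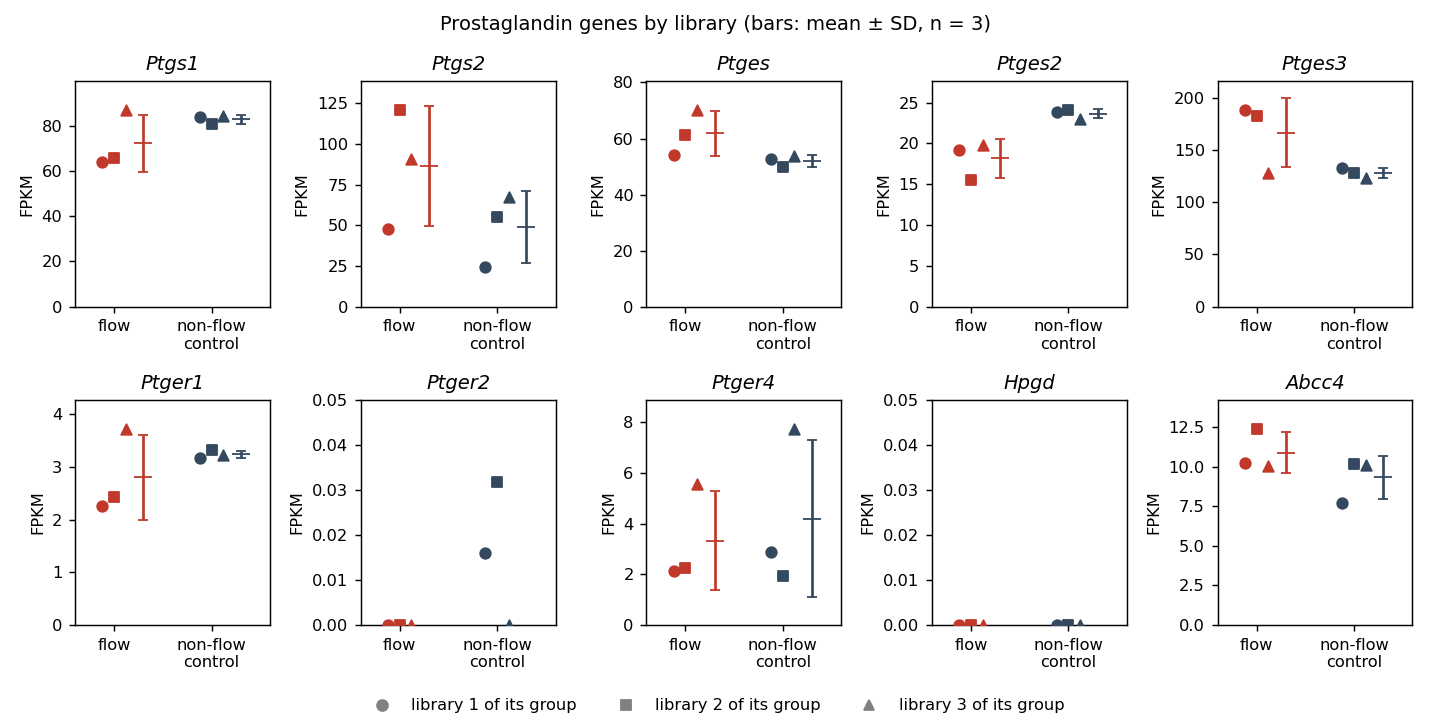
FPKM of the 10 prostaglandin genes in each library, flow left of non-flow control, each axis starting at 0. Symbols are libraries 1 to 3 of a group and do not pair libraries across groups; bars are mean ± SD (n = 3) and are left out for Ptger2 and Hpgd, which were at or near 0. Flow values lie all above the controls in Ptges and all below them in Ptges2, and overlap them in the others.

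Among the 10 genes, transcripts of the cyclooxygenases and synthases had higher mean levels than those of the PGE2 receptors. In flow cells the mean levels were 166.6 FPKM for Ptges3, 86.4 for Ptgs2, 72.2 for Ptgs1, 61.8 for Ptges, 18.2 for Ptges2, 10.9 for Abcc4, 3.33 for Ptger4 and 2.81 for Ptger1. In control cells they were 128.5 FPKM for Ptges3, 82.8 for Ptgs1, 52.1 for Ptges, 48.8 for Ptgs2, 23.7 for Ptges2, 9.33 for Abcc4, 4.20 for Ptger4 and 3.24 for Ptger1. By its mean Ptgs2 stood above Ptgs1 and Ptges in flow and below both in controls, but its single libraries spanned those of Ptges in both groups, and those of Ptgs1 in flow. Ptger4 and Ptger1 also overlapped within each group, and the highest control value of Ptger4 (7.741 FPKM) just passed the lowest of Abcc4 (7.737 FPKM). Among all tested genes, 92.3% had a lower control mean than Ptges3, 79.0% than Ptgs2 and 15.7% than Ptger1.

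Ptgs2, the inducible cyclooxygenase (ENSMUSG00000032487, chromosome 1, 150100124 to 150108010 in the deposited table, mm10), had 47.7, 120.6 and 91.0 FPKM in flow libraries 1 to 3 and 24.2, 54.9 and 67.4 FPKM in non-flow controls 1 to 3. Flow libraries 2 and 3 were above every control, while flow library 1 lay below controls 2 and 3. The fitted change was a log2 fold change of 0.83 with SE 0.48 (limma, adjusted p = 0.567), or 1.78-fold with a 95% interval of 0.799 to 3.98. Without pairs, that interval holds both no change and a more than tripled level. The labels say that controls were collected in parallel but tie no flow culture to a control. In libraries with adjacent titles, which carry the same number here, Ptgs2 was higher in flow than in the control in 3 of 3 pairs. Ptges and Ptges3 were also higher in 3 of 3, and Ptges2 was lower in 3 of 3. The share of all genes with such a pattern was not computed. With adjacent titles as a block the log2 fold change of Ptgs2, 0.83, had SE 0.16 (limma, adjusted p = 0.423). Ptgs2 varied widely within groups: its pooled SD was 0.721 log2 units, larger than in 95.8% of the 2619 genes of mean level within 2-fold of its own. The change was 0.40 without non-flow control 1, the lowest library, and 0.55 without flow library 2, the highest. The fewest reads behind any Ptgs2 value were about 954, in non-flow control 1.

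Ptgs1, the constitutive cyclooxygenase (ENSMUSG00000047250, chromosome 2, 36230426 to 36252272), had 64.1, 65.7 and 86.8 FPKM in flow libraries 1 to 3 and 83.7, 80.6 and 84.1 FPKM in non-flow controls 1 to 3. Controls were tightly grouped, flow libraries 1 and 2 lay below all of them, and flow library 3 lay above all of them. The log2 fold change was -0.21 with SE 0.13 (limma, adjusted p = 0.590). It was -0.35 without flow library 3 (adjusted p = 0.0780) and 0.07 with flow library 3 as the only flow library. The ratio of Ptgs2 to Ptgs1 within a library was 0.744, 1.84 and 1.05 in flow libraries 1 to 3 and 0.289, 0.681 and 0.801 in controls 1 to 3. Ptgs2 outnumbered Ptgs1 per length in flow libraries 2 and 3 and in no other library. The ratio of flow library 1 fell inside the control range, and each flow library exceeded the control with the adjacent title. In the other deposited table, which has a lower depth, the ratio was 0.791, 1.66 and 1.01 in flow and 0.334, 0.670 and 0.771 in controls. There every flow value was above every control, but only narrowly, at 0.791 against 0.771. The control at 0.334 was also the thinnest column there, with about 690000 reads.

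The promoter windows of the 2 cyclooxygenases are shown because the genes encode enzymes of the same reaction but differed in spread between libraries. Each window is from RefSeq on GRCm38.p6, the assembly of mm10, and runs 5′ to 3′ from 250 bases before the annotated start to 50 after it. Capitals mark matches, on either strand, to any of 8 motifs. The factor motifs were NF-kB (GGG, any 5 bases, then CC), C/EBP (TTNNGNAA), AP-1 (TGANTCA) and the core of the cyclic AMP response element, read as TGACG. The others were the E-box, read as CACGTG, the TATA box, read as TATAAA, the core bound by the hypoxia factor HIF, read as ACGTG, and the element named for shear stress, read as GAGACC. The HIF core lies inside the E-box wherever both are marked.
Ptgs2, chr1:150099781-150100080, plus strand: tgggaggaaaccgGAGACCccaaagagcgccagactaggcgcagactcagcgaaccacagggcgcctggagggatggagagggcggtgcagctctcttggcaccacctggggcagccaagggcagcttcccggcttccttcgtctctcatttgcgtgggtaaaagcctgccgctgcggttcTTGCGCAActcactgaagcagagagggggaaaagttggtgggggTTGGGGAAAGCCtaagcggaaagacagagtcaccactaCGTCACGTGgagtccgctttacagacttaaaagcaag
Ptgs1, chr2:36230176-36230475, plus strand: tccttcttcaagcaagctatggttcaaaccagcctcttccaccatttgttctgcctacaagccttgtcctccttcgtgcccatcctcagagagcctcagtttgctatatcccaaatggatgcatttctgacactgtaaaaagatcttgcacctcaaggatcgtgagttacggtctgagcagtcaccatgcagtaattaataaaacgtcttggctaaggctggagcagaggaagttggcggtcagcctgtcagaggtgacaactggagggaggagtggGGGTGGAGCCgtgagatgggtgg
The Ptgs2 window holds a shear stress element at bases 14 to 19, a palindromic C/EBP match at 182 to 189, a C/EBP and an NF-kB match that overlap at 226 to 237, and a cyclic AMP response element core at 264 to 268 that overlaps an E-box at 267 to 272. The Ptgs1 window holds 1 match, to NF-kB at bases 278 to 287. Of all 32851 promoter windows, 50.8% hold the NF-kB letters, 40.7% the C/EBP letters, 20.8% the cyclic AMP response element core, 19.6% the HIF core, 16.4% the shear stress element, 13.6% the TATA box, 7.81% the AP-1 letters and 7.15% the E-box. These are matches of letters only, and the deposited table starts Ptgs2 at 150100124, beyond the 3′ end of this window.

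The estimates for the prostaglandin E synthases differed in sign, and none passed the test. Ptges, the inducible microsomal synthase usually coupled to COX-2 (ENSMUSG00000050737, chromosome 2, 30889471 to 30929863), had 54.3, 61.1 and 70.0 FPKM in flow libraries 1 to 3 and 52.7, 49.7 and 53.8 FPKM in non-flow controls 1 to 3. All flow values were above all controls, though flow library 1 exceeded control 3 by less than 1 FPKM. Its log2 fold change was 0.24 with SE 0.11 (limma, adjusted p = 0.559). It was 0.14 without flow library 3, which held the highest value.

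Ptges2, a membrane-associated synthase present in most cells (ENSMUSG00000026820, chromosome 2, 32395896 to 32402739), had 19.2, 15.5 and 19.9 FPKM in flow libraries 1 to 3 and 23.9, 24.1 and 23.1 FPKM in non-flow controls 1 to 3. Every flow library was below every control, and the controls lay within 1 FPKM of each other. This gave a log2 fold change of -0.37 with SE 0.12 (limma, adjusted p = 0.559), or 0.774-fold with a 95% interval of 0.636 to 0.942. Ptges3, the cytosolic synthase also known as the HSP90 co-chaperone p23 (chromosome 10, 128058954 to 128077272), had 188.2, 183.2 and 128.6 FPKM in flow libraries 1 to 3 and 133.2, 128.4 and 123.8 FPKM in controls 1 to 3. Flow libraries 1 and 2 stood well above the controls and flow library 3 lay among them. The fitted log2 fold change was 0.35 with SE 0.16 (limma, adjusted p = 0.559). It was 0.53 without flow library 3 (adjusted p = 0.0695) and 0.0019 with flow library 3 alone. In GENCODE M21, 19.6% of the 50-base stretches of Ptges3 occur also in Gm11893 or Ptges3-ps, so its value is uncertain. Gm11893 was listed at 0 in 5 libraries and at 0.383 FPKM in non-flow control 2.

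The ratio of Ptges to Ptges2 within a library, chosen after the values were seen and given without a test, did not overlap between groups. It was 2.83, 3.95 and 3.53 in flow libraries 1 to 3 and 2.21, 2.07 and 2.33 in controls 1 to 3, or 3.43 ± 0.565 in flow and 2.203 ± 0.133 in controls (SD, n = 3 each). In the other table the ratio was 2.13, 3.84 and 3.68 in flow and 1.43, 1.96 and 2.69 in controls, so the groups overlapped. As a share of the summed FPKM of the 3 synthases, Ptges made up 20.8%, 23.5% and 32.1% in flow libraries 1 to 3 and 25.1%, 24.6% and 26.8% in controls 1 to 3. Ptges2 made up 5.96% to 9.09% in flow and 11.4% to 11.9% in controls, and Ptges3 made up the rest.

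**Figure D2:**
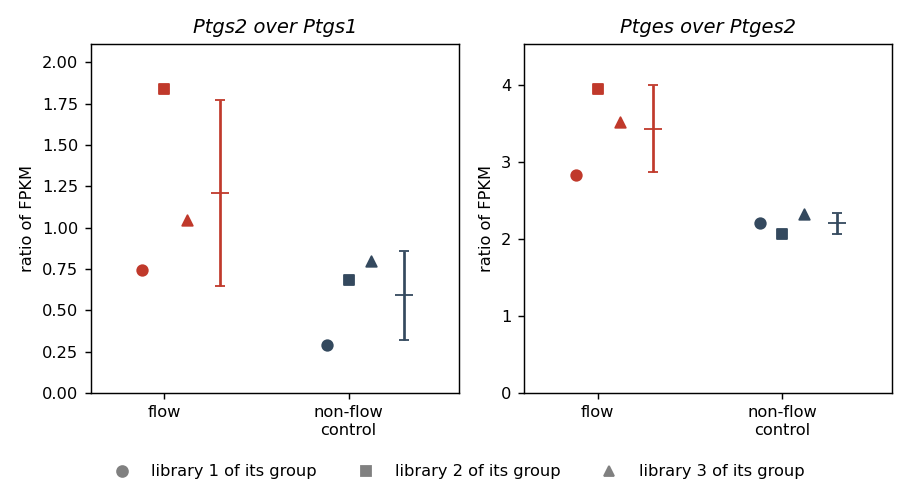
Ratio of FPKM of Ptgs2 to Ptgs1 (left) and of Ptges to Ptges2 (right) in each library, flow left of non-flow control, with mean ± SD (n = 3). The cyclooxygenase ratios overlap in this table, from 0.744 to 1.84 in flow and 0.289 to 0.801 in controls; the synthase ratios are 2.83 to 3.95 in flow and 2.07 to 2.33 in controls.

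The promoter windows of Ptges and Ptges2, from the same source and marked in the same way, are shown because these were the members without overlap between groups.
Ptges, chr2:30903248-30903547, minus strand: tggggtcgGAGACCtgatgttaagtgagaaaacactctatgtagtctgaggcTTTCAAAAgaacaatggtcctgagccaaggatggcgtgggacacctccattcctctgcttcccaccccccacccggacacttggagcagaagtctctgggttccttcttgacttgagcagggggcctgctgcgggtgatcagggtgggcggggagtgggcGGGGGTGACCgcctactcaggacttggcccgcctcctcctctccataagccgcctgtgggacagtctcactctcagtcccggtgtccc
Ptges2, chr2:32395640-32395939, plus strand: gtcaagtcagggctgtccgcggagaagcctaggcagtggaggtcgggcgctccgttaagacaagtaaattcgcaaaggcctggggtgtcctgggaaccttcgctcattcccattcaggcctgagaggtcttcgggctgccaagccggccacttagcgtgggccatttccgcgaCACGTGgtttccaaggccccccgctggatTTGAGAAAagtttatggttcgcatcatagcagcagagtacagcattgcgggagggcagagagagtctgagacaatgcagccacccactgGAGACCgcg
Both windows hold a shear stress element, at bases 9 to 14 in Ptges and 292 to 297 in Ptges2, and a C/EBP match. Ptges has an NF-kB match at 213 to 222 and no E-box, and Ptges2 an E-box at 174 to 179 and no NF-kB match. RefSeq gave a window for 9 of the 10 genes, all but Ptger1. The shear stress letters were in windows of 6 of these 9 genes, the NF-kB and C/EBP letters in 6 each, the E-box in 3 (Ptgs2, Ptges2 and Abcc4), the cyclic AMP response element core in 2 (Ptgs2 and Ptges3), the TATA box in Hpgd alone and the AP-1 letters in 0. The Ptges window lies inside the gene's deposited span on the minus strand, whose 5′ end is at 30929863, so this window does not cover that start.

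Transcripts of the PGE2 receptors among the members were scarce. Ptger4, the Gs-coupled EP4 receptor that raises cyclic AMP (chromosome 15, 5206661 to 5244187 in GENCODE M21), had 2.14, 2.27 and 5.57 FPKM in flow libraries 1 to 3 and 2.89, 1.95 and 7.74 FPKM in non-flow controls 1 to 3. The third library of each group was the highest of its group, and the groups overlapped. The log2 fold change was -0.19 with SE 0.48 (limma, adjusted p = 0.881), and it was 0.26 without non-flow control 3. The pooled SD of Ptger4, 0.715 log2 units, exceeded that of 91.0% of the 2839 genes of similar level. With adjacent titles as a block the log2 fold change of -0.19 had SE 0.17 (limma, adjusted p = 0.589). About 42 reads stood behind the value in flow library 2 and about 478 behind that in non-flow control 3. Exons of Ttc33 and Gm15937 on the opposite strand cover 16.5% of the exon bases of Ptger4. Ttc33 had 11.3 ± 2.03 FPKM in flow and 13.3 ± 1.98 in controls (SD, n = 3 each).

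Ptger1, the EP1 receptor that signals through calcium (chromosome 8, 83666678 to 83672753 in GENCODE M21), had 2.25, 2.44 and 3.72 FPKM in flow libraries 1 to 3 and 3.18, 3.32 and 3.23 FPKM in non-flow controls 1 to 3. As with Ptgs1, flow libraries 1 and 2 lay below all controls and flow library 3 above them. The log2 fold change was -0.18 with SE 0.19 (limma, adjusted p = 0.698), -0.34 without flow library 3 and 0.16 with flow library 3 alone. The use of strand is not given in the sources used here, and the value of Ptger1 is uncertain for that reason.

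Ptger2, the EP2 receptor, which also raises cyclic AMP (chromosome 14, 44988195 to 45003820 in GENCODE M21), was listed at 0 in the 3 flow libraries and non-flow control 3, and at 0.0160 and 0.0317 FPKM in non-flow controls 1 and 2. These correspond to about 1 and 2 reads. A level that gives 3 reads at the gene's mean transcript length would be 0.0917, 0.176 and 0.0526 FPKM in flow libraries 1 to 3 and 0.0564, 0.0559 and 0.0532 in controls 1 to 3, and a level under that is counted too thinly to be told from 0. Hpgd, the dehydrogenase that starts PGE2 breakdown (chromosome 8, 56294552 to 56321046), was listed at 0 in all 6 libraries. Its value for 3 reads was 0.184, 0.352 and 0.105 FPKM in flow libraries 1 to 3 and 0.113, 0.112 and 0.106 in controls 1 to 3. Abcc4, the exporter MRP4 (chromosome 14, 118482692 to 118706219), had 10.2, 12.4 and 10.0 FPKM in flow libraries 1 to 3 and 7.74, 10.2 and 10.1 FPKM in controls 1 to 3. The lowest value was in non-flow control 1, the highest in flow library 2, and the groups overlapped. For Abcc4 the log2 fold change was 0.21 with SE 0.15 (limma, adjusted p = 0.617), and 0.09 without non-flow control 1.

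Flow library 3 differed from the other flow libraries in several members. In Ptgs1, Ptges3 and Ptger1, flow libraries 1 and 2, which were also the shallowest, lay together on one side of all controls, and flow library 3 did not. Without flow library 3 the smallest adjusted p of any member was 0.0695, in Ptges3, and Ptger1 and Ptges2 were at 0.143 and 0.113 (limma). Over all genes, 3152 then had an unadjusted p under 0.05, against 1019 with all libraries. The part of depth in this was not tested.

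**Figure D3:**
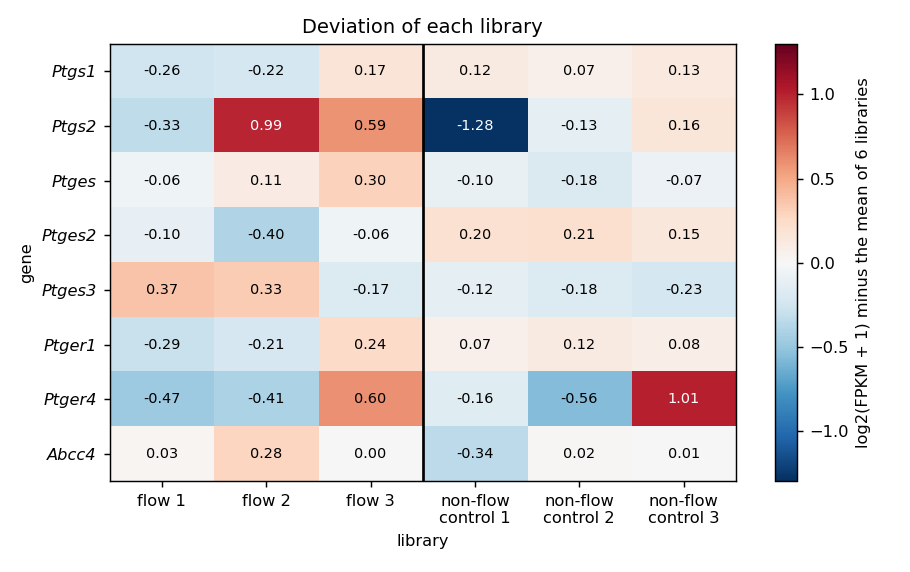
Deviation of log2(FPKM + 1) from the mean of the 6 libraries for the 8 tested genes, flow libraries left of the line and non-flow controls right of it. Flow libraries 1 and 2 share the sign in Ptgs1, Ptges2, Ptges3, Ptger1 and Ptger4, and flow library 3 has the other sign in all of these except Ptges2; in Abcc4 all 3 flow libraries are above 0, flow library 3 by 0.001.

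Base composition moved with some of these estimates. The transcripts of Ptges2, Ptger1 and Ptges average 57.6%, 56.6% and 56.1% GC, and those of Ptges3 and Ptgs2 42.2% and 42.6%. After the trend on GC was removed from each library in protein-coding genes, the log2 fold change was 0.41 for Ptges (limma, adjusted p = 0.556), -0.17 for Ptges2 (adjusted p = 0.797), 0.15 for Ptges3 (adjusted p = 0.797), 0.0039 for Ptger1 (adjusted p = 0.997) and 0.64 for Ptgs2 (adjusted p = 0.821). The estimates for Ptges2, Ptges3 and Ptger1 were thus nearer to 0 and that for Ptges farther from it. Whether GC content had a part in the uncorrected values was not tested further.

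**Figure D4:**
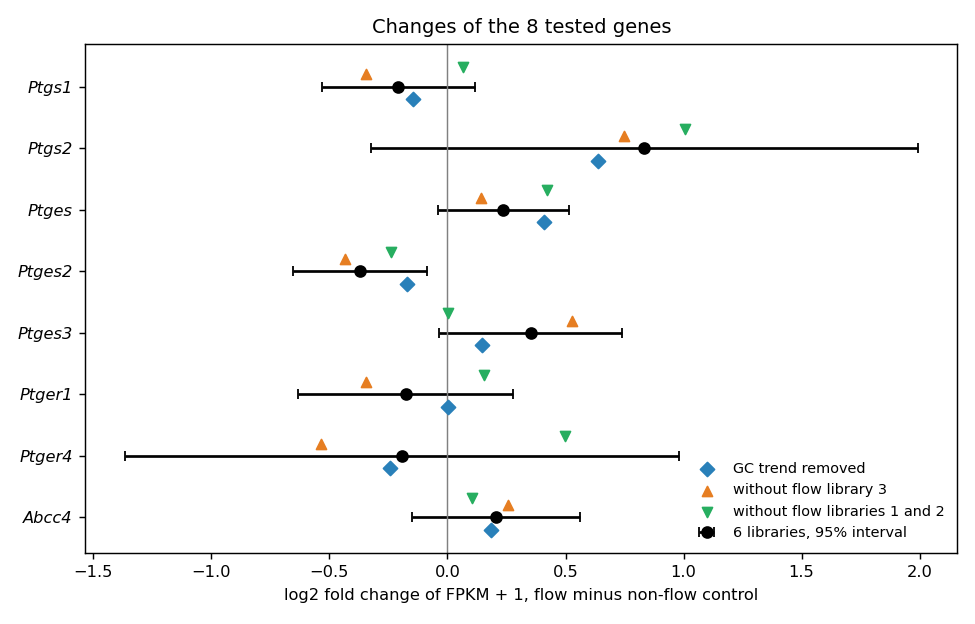
Log2 fold change of FPKM + 1 (flow minus non-flow control) of the 8 tested genes. Black points and bars are the estimates and 95% intervals with 6 libraries; diamonds, upward and downward triangles give the estimate after removal of the GC trend, without flow library 3, and without flow libraries 1 and 2. Ptgs2 is above 0 in each of these, from 0.64 to 1.01, and Ptges3 runs from 0.0019 to 0.53.

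Arachidonate supply genes were described from a list of 21, of which 8 passed the expression minimum. limma called 0 of the 8, and 0 had an unadjusted p under 0.05. Their median log2 fold change was -0.03, against -0.01 over all genes tested. Pla2g4a, the cytosolic phospholipase that supplies COX-2 with arachidonate, had 101.4, 120.1 and 38.4 FPKM in flow libraries 1 to 3 and 40.3, 72.1 and 33.4 FPKM in non-flow controls 1 to 3. Flow libraries 1 and 2 were above every control and flow library 3 was not (log2 fold change 0.75, SE 0.49, adjusted p = 0.597). Pla2g6, the calcium-independent phospholipase, had 6.02 ± 1.01 FPKM in flow and 8.16 ± 1.24 in controls (SD, n = 3 each), with every flow value below every control (adjusted p = 0.559). Pla2g15, a lysosomal phospholipase, had 3.804 ± 1.23 FPKM in flow and 5.08 ± 0.349 in controls (adjusted p = 0.570). Pla2g16 had 21.4 ± 2.44 FPKM in flow and 23.7 ± 2.68 in controls (adjusted p = 0.652).

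Transcripts of the synthases of prostaglandin D, prostacyclin and thromboxane were at or near 0. Of 13 other prostanoid synthase and reductase genes, 7 were tested and limma called 0 (0 with an unadjusted p under 0.05; median log2 fold change -0.05). Ptgds and Ptgis, the prostaglandin D and prostacyclin synthases, were listed at 0 in all 6 libraries, and Tbxas1, thromboxane synthase, reached at most 0.468 FPKM. The tested genes were reductases and glutathione transferases with wider roles. Akr1b3, an aldo-keto reductase on the list, averaged 58.15 FPKM in flow and 58.59 in controls (limma, adjusted p = 0.963). Among the tested genes Gstm1 had 70.9 ± 13.6 FPKM in flow and 85.8 ± 12.6 in controls (SD, n = 3 each; adjusted p = 0.598), and Cbr1, a carbonyl reductase, had 17.8 ± 4.997 FPKM in flow and 19.2 ± 1.65 in controls (adjusted p = 0.807). Cbr2, another carbonyl reductase, had 13.5 ± 3.79 FPKM in flow and 14.8 ± 3.26 in controls (adjusted p = 0.829), and Akr1b8, an aldo-keto reductase, 50.9 ± 3.75 FPKM in flow and 52.9 ± 5.61 in controls (adjusted p = 0.860).

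Ptgfr, Ptgir and Ptgfrn had more FPKM than any of the 3 PGE2 receptors among the 10 genes in every library. Of 7 listed, 4 were tested, and limma called 0 (0 with an unadjusted p under 0.05; median log2 fold change 0.05). Ptgfr, the prostaglandin F receptor, had 33.0, 19.1 and 31.0 FPKM in flow libraries 1 to 3 and 16.4, 12.7 and 32.2 FPKM in controls 1 to 3, with overlap (adjusted p = 0.632). Ptgir, the prostacyclin receptor, had 26.0 ± 5.31 FPKM in flow and 22.4 ± 5.68 in controls (SD, n = 3 each; adjusted p = 0.683). Ptgfrn, a membrane protein that associates with the prostaglandin F receptor, had 24.0 ± 5.08 FPKM in flow and 26.0 ± 4.96 in controls (adjusted p = 0.834). Ptger3, the Gi-coupled EP3 receptor and the only PGE2 receptor outside the 10 genes, had 1.10, 0.191 and 1.24 FPKM in flow libraries 1 to 3 and 1.26, 1.02 and 1.90 FPKM in controls 1 to 3 (adjusted p = 0.634). In every library Ptgir had more FPKM than Ptger1 and Ptger4 together.

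With Hpgd at 0, other breakdown and transport genes were looked at. Of 11, 7 were tested and limma called 0 (0 with an unadjusted p under 0.05; median log2 fold change 0.10). Ptgr1 and Ptgr2, which reduce keto prostaglandins, had estimates of opposite sign, each without overlap between groups. Ptgr1 had 36.0, 31.1 and 32.9 FPKM in flow libraries 1 to 3 and 29.3, 25.1 and 31.0 FPKM in controls 1 to 3 (log2 fold change 0.22, SE 0.11, adjusted p = 0.559). Ptgr2 had 13.7, 14.4 and 15.4 FPKM in flow and 16.2, 15.9 and 18.7 FPKM in controls (log2 fold change -0.21, SE 0.10, adjusted p = 0.559). Abcb1a, a multidrug exporter, had 28.0 ± 10.8 FPKM in flow and 22.1 ± 9.52 in controls (SD, n = 3 each; adjusted p = 0.728), and Zadh2, another prostaglandin reductase, 9.54 ± 1.01 FPKM in flow and 8.83 ± 0.998 in controls (adjusted p = 0.749). Of 14 lipoxygenase and leukotriene genes, Lta4h alone was tested, at 66.6 ± 3.36 FPKM in flow and 65.8 ± 3.24 in controls (adjusted p = 0.940). Alox5 and Alox15 were listed at 0 in all 6 libraries.

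Factors known to act on Ptgs2 transcription or mRNA stability, and genes that cyclic AMP induces downstream of EP2 and EP4, were not called either. Of 20 regulators 19 were tested, and limma called 0. Elavl1, the RNA-binding protein HuR that stabilizes Ptgs2 mRNA, was the one with an unadjusted p under 0.05. It had 26.9, 27.8 and 25.5 FPKM in flow libraries 1 to 3 and 22.6, 21.9 and 23.3 FPKM in controls 1 to 3, without overlap (log2 fold change 0.23, SE 0.08, adjusted p = 0.559). Tial1, which represses translation of AU-rich mRNAs, also had every flow value above every control (66.7 ± 5.10 FPKM in flow and 57.6 ± 0.513 in controls, SD, n = 3 each; adjusted p = 0.559), as did Creb1, the cyclic AMP response factor (6.42 ± 0.903 FPKM in flow and 5.27 ± 0.260 in controls; adjusted p = 0.563). Cebpd, a C/EBP factor, had 4.91, 14.9 and 7.42 FPKM in flow and 5.18, 5.64 and 4.18 FPKM in controls (adjusted p = 0.566). The regulators' median log2 fold change was 0.07.

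Of 18 cyclic AMP and CREB target genes 16 were tested, limma called 0, and 0 had an unadjusted p under 0.05. Their median log2 fold change was -0.11, but it ran from -0.18 to 0.16 when 1 library was omitted. Areg, amphiregulin, had 8.72, 10.6 and 19.3 FPKM in flow libraries 1 to 3 and 4.36, 7.87 and 10.7 FPKM in controls 1 to 3, with overlap (adjusted p = 0.563). Fosl2, an AP-1 subunit, had 16.3 ± 0.938 FPKM in flow and 20.2 ± 3.23 in controls (adjusted p = 0.559). Rgs2, a regulator of G-protein signalling, had 8.85 ± 4.19 FPKM in flow and 12.6 ± 3.17 in controls (adjusted p = 0.614), and Nr4a3, a nuclear receptor, 1.12 ± 0.606 FPKM in flow and 2.27 ± 1.29 in controls (SD, n = 3 each; adjusted p = 0.620).

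**Figure D5:**
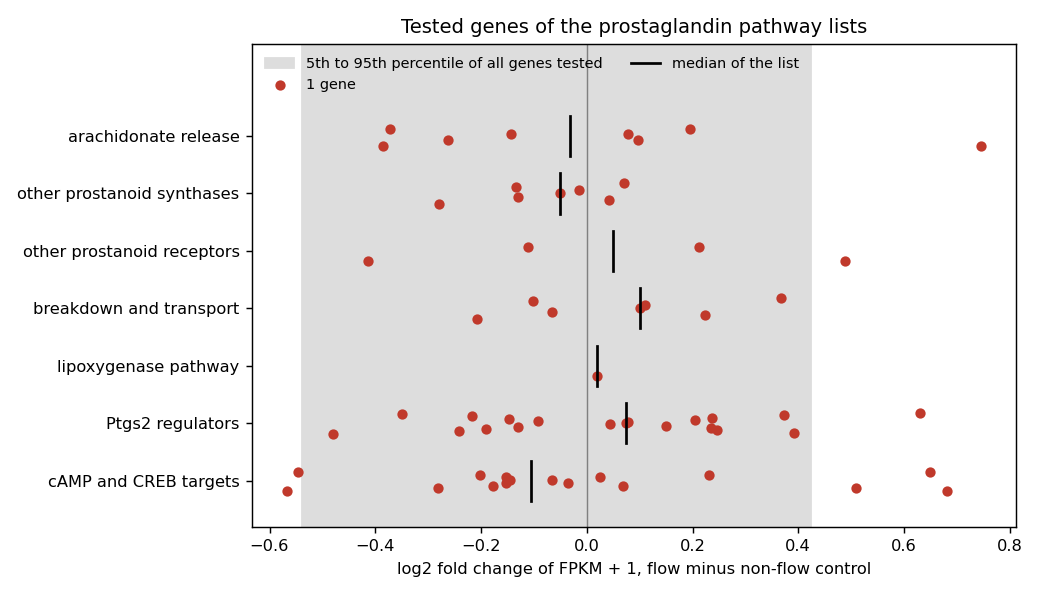
Log2 fold change of FPKM + 1 (flow minus non-flow control) of the tested genes of 7 lists around the prostaglandin pathway, 1 point a gene, with the list's median as a bar and the 5th to 95th percentile of all genes tested (-0.54 to 0.42) shaded. Medians lie between -0.11 and 0.10, and the point at 0.75 in the top list is Pla2g4a.

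The genes whose profile over the 6 libraries was most like that of Ptgs2 were sought among the 9244 others that averaged 5 FPKM or more. The highest Pearson correlations were 0.998 for Fbxo9, 0.981 for Tars, 0.978 for Zak, 0.977 for Osgin2 and 0.973 for Xpot. With 6 points and this many genes such values are a description only. Fbxo9, an F-box protein, had 25.1, 31.6 and 29.9 FPKM in flow libraries 1 to 3 and 21.45, 26.4 and 27.2 FPKM in controls 1 to 3. Tars and Xpot, a threonyl-tRNA synthetase and a tRNA export factor, had log2 fold changes of 0.07 and 0.09, Zak, a stress-activated kinase, 0.25, and Osgin2 0.60. All 5 overlapped between groups, as Ptgs2 did, and none was called (limma, adjusted p of 0.559 to 0.733).

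The other deposited table gives FPKM of the same study at lower depth and so is no independent sample. Its depth was 690000 reads in non-flow control 1 and 3610000 to 4720000 in the other columns. In that table the log2 fold change of each of the 8 genes kept its sign. These log2 fold changes ran from -0.46 for Ptger4 and -0.44 for Ptges2 to 0.39 for Ptges3 and 0.83 for Ptgs2, with adjusted p of 0.751 to 0.838 (limma). Ptgs2 had 44.1, 105.4 and 85.6 FPKM in flow and 24.0, 46.7 and 61.1 FPKM in controls. Ptges and Ptges2 overlapped between groups there. For Ptges2 the overlap was narrow: the highest flow value was 19.04 FPKM and the lowest control value 18.55 FPKM. Hpgd and Ptger2 were listed at 0 in all 6 columns.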

How the data were processed

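Libraries of 3 flow and 3 non-flow control cultures were read in 50 single-end cycles, per the labels' protocols. Processing used Cufflinks 2.2.1, TopHat2 2.0.9 and CASAVA 1.8.2 with mm10, per the submitters' processing notes; annotation, counting and strand settings are not given here. The authors deposited 2 tables of FPKM, per the file headers, and neither has counts. The one whose columns all carry library titles was tested; in the other, 2 columns named as flow match no title and were used for the flow group, and of 22 repeated rows the higher was kept.

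Depth was estimated from the steps of FPKM between 0.01 and 1 in genes with 1 transcript over 800 nt (length less 200 nt), of which 74.7% to 81.0% came within 0.02 of whole reads. Reads of members are approximate, and floors of 3 reads cover counting error only. limma 3.58.1 (R 4.3.3) was fitted to log2(FPKM + 1), which understates changes of low genes, with a trended variance, no covariates, two-sided tests and Benjamini-Hochberg adjustment over 11957 genes averaging 1 FPKM or more, at 0.05. With 3 cultures a group, an exact permutation test cannot go below 0.1 and was not run. Fit and depth estimate were tested on simulated data. Members and lists were chosen with earlier results of these data known. Named were the 10 members, the 4 tested genes of each list with the smallest p, the 5 genes most correlated with Ptgs2, osteocyte markers and overlapping or similar genes; Akr1b3 and genes at or near 0 were named after their values were seen. Overlaps, lengths and GC content came from GENCODE M21, promoters from RefSeq, both on the mm10 assembly, with 1-based coordinates. One item that bears on Ptger1 is not reported here. Alternatives changed the pseudocount, filter, scaling, variance trend or table, corrected for GC, blocked adjacent titles or left out libraries.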

Additional observations from a re-analysis of the deposited data

How the results depend on the processing

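No prostaglandin gene was called by limma under any of the 17 alternatives, and the lowest adjusted p of any member was 0.0695 (Ptges3 without flow library 3). Ptgs2, Ptges, Ptges2, Ptges3 and Abcc4 kept their sign in all of them (Ptger1 and Ptger4 were under the filter of 5 FPKM); the log2 fold change of Ptgs2 ran from 0.40 to 1.21. With the GC trend removed Ptger1 was at 0.0039, with or without pairs. With flow library 3 as the only flow library, assumed to vary like the controls and chosen after seeing the data, Ptgs1 was at 0.0673, Ptger1 at 0.16 and Ptger4 at 0.50, and the median of cyclic AMP targets at 0.31; that median was 0.05 with the GC trend removed. Ptger4 ran from -0.54 to 0.26 when 1 library was omitted. Over all genes limma called 4 with a pseudocount of 0.1, 4 without a filter, 0 with the GC trend removed (701 with an unadjusted p under 0.05), 76 without flow libraries 1 and 2, and 3 to 14 when 1 library was omitted, the filter being kept. The median of the breakdown and transport list was 0.0136 without a filter, 0.17 in the other table, 0.04 with GC correction, with or without pairs, and 0.0187 to 0.114 with 1 library omitted. The cause of these shifts was not tested.

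No label ties a flow culture to a control culture of the same day. With adjacent titles as a replicate block, 1 gene was called over all genes and no member: Ptgs2 had SE 0.16 (adjusted p = 0.423), and 0.09 with the GC trend removed as well (log2 fold change 0.64, adjusted p = 0.147), a combination chosen after seeing the data. Deviations from group means over genes in the 3 pairs of adjacent titles had Pearson correlations of 0.043, 0.023 and 0.064 and Spearman correlations of 0.241, 0.299 and 0.278. Spearman correlations of the other pairs were all negative, from -0.217 to -0.084. Deviations within a group sum to 0 for each gene, so positive values in some pairs push the other pairs down. The negative values are therefore no separate evidence of pairing. By ranks every library correlated best, among those of the other group, with its adjacent title. Pearson correlations of the other pairs ran from -0.068 to 0.027. By Pearson the same ranking held for every library but non-flow control 2, which was at 0.027 with flow library 1. The 2 measures differed in size, and whether adjacent titles share a day is not settled. Depth limits Hpgd and Ptger2 most, with 0 to 2 reads, then Ptger1 and Ptger4, with about 39 and 42 reads in flow library 2.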
